A study of Phaseolus vulgaris with 6 samples.

Results

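The genes described here are the 89 bean genes whose annotation names a chitinase, a thaumatin, a pathogenesis-related (PR) protein, a Kunitz inhibitor, a cystatin, a serpin or a small cysteine-rich peptide (SCR-like or low-molecular-weight cysteine-rich, LCR). They were taken by these words from the 19598 genes listed for developing pods of common bean (Phaseolus vulgaris), and no annotation with lectin or kinase was among them. Pods of the navy bean genotypes Albion and Voyager were compared, with 3 replicate pots of each and 2 pods ground together per replicate. The labels give an age of 20 days after anthesis for both genotypes and the study's methods give a younger age. By the labels Albion is low and Voyager normal in zinc concentration, and plants of both were supplied with sufficient zinc, so genotype was the only contrast.

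PR proteins are secreted or vacuolar proteins that plants make in response to pathogens, wounding and hormones, and many of them are also made during the normal development of flowers, fruits and seeds. Chitinases cut chitin, a polymer of fungal cell walls and insect cuticles, thaumatin-like proteins can permeabilise fungal membranes, and plant defensins are small peptides held together by disulfide bonds. Kunitz inhibitors block serine proteases such as trypsin, cystatins block papain-like cysteine proteases, and both kinds are known from legume seeds.

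Values are the authors' FPKM (the number of sequenced fragments of a gene, scaled to the length of its exons and to the mapped reads of the library), with 1 pooled value per gene and genotype. The values of single replicates were not used here, so no value has an error, no difference could be set against the spread between pots, and no test was made. Levels of different genes are compared per length, as FPKM. A difference is that of log2(FPKM + 1), Voyager minus Albion, and a gene is called 2-fold higher in a genotype when this difference reaches 1. Ratios are those of the FPKM values themselves. Depth behind a single value is unknown. In all genes, FPKM summed to 830694 in Albion and 950155 in Voyager. Each sample held pod wall and developing seed together, in proportions that the study describes as unequal between the genotypes. Fewer cells of a tissue and less RNA per cell cannot be told apart in such samples.

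Genes taken as markers of seed and of green tissue were expressed in both genotypes, but no list marks pod wall alone. The 4 oleosin genes, which coat the oil bodies of seeds, summed to 861 FPKM in Albion against 695 in Voyager, and the 3 genes of the cupin family, seed storage proteins, to 11821 and 14839. Over the whole list of 152 genes taken by seed words, which also apply to genes outside seeds, the sums were 26273 and 28477 FPKM, with 2 genes listed at 0 in Albion and 1 in Voyager. The 84 genes of photosystems and chlorophyll binding summed to 21168 FPKM in Albion against 19176 in Voyager, and none was listed at 0. No oleosin or cupin family gene was listed at 0 or reached a 2-fold difference. In the whole list of 152 genes, 5 (3.29%) were 2-fold higher in Voyager and 1 (0.658%) in Albion. The shares over all listed genes were 2.55% and 1.76%. Of the 84 photosynthesis genes, 6 were 2-fold higher in Albion and 2 in Voyager, with 38 of 84 having the higher value in Voyager. The part of tissue proportions in the differences below was not tested.

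A larger share of these 89 genes than of all listed genes passed the 2-fold rule. Of the 89 genes, 17 (19.1%) were at least 2-fold higher in Voyager, against 2.55% of all listed genes, and 15 (16.9%) were at least 2-fold higher in Albion, against 1.76%. In either direction this was 36.0% of the 89 genes and 4.31% of all genes. At 4-fold, 9 were higher in Voyager (0.505% of all genes) and 8 in Albion (0.347%). When Voyager was scaled to the same summed FPKM as Albion, the shares of all genes were 1.83% and 2.31%. Short gene models differ more often, and the median span of the 89 genes was 1003 bp against 3362 bp for all genes. Among the 2053 genes no longer than that median, 7.99% were 2-fold higher in Voyager and 5.85% in Albion. The directions nearly cancelled, with a median difference of 0.13 against 0.07 over all genes, and the summed FPKM was 7327 in Albion and 7510 in Voyager, 0.882% and 0.790% of the totals.

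The direction went with the role of the genes. Chitinases, PR-1 and PR-4 genes and Kunitz inhibitors had most of their 2-fold differences towards Voyager, and the SCR-like and LCR peptides had theirs towards Albion. The difference between roles was not tested.

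**Figure D1:**
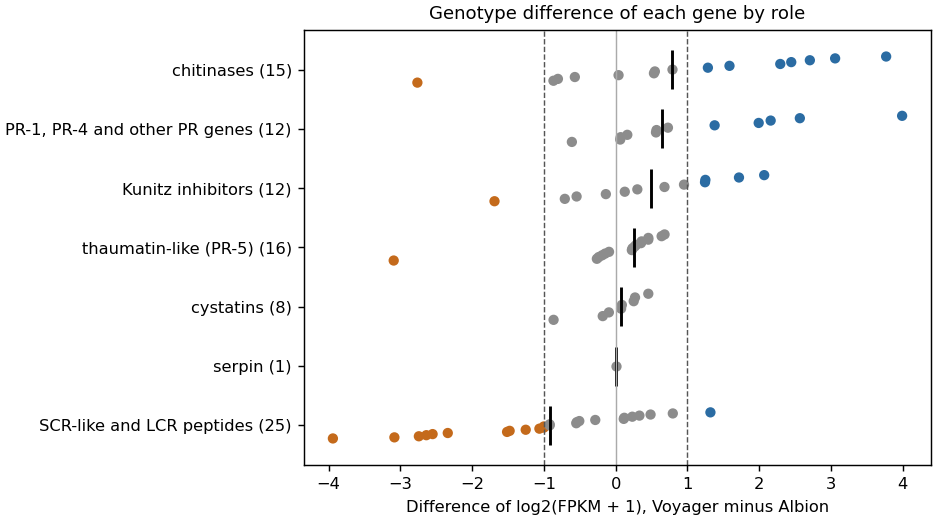
Difference of log2(FPKM + 1), Voyager minus Albion, of each of the 89 genes (points), by role, with the number of genes in brackets. Black bars are medians and dashed lines mark a 2-fold difference; 12 of 25 peptide genes lie at or beyond the left line and 7 of 15 chitinase genes beyond the right one.

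Of the 15 chitinase genes, 7 (46.7%) were 2-fold higher in Voyager and 1 (6.67%) was 2-fold higher in Albion. The shares were 2.55% and 1.76% over all listed genes, and 7.99% and 5.85% over those spanning no more than 1003 bp. The median difference of the chitinases was 0.79. The basic chitinases, the class I enzymes of the PR-3 family, carried most of the differences towards Voyager, with 5 of 7 genes higher there. On chromosome 9, 4 of them lie close together between 17415735 and 17486785 (v1.0 genome), and all 4 were at least 4-fold higher in Voyager. Phvul.009G116500 had 10.1 FPKM in Albion against 150 in Voyager, a ratio of 14.9. Phvul.009G116600 had 15.5 and 137 FPKM, a ratio of 8.81. The lower copies showed the same direction. Phvul.009G116700 had 4.33 and 25.2 FPKM, a ratio of 5.81, and Phvul.009G116300 had 0.41 and 8.21 FPKM. Together the cluster held 30.4 FPKM in Albion and 320 FPKM in Voyager.

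The basic chitinases on chromosome 2 went in opposite directions. Phvul.002G114200 (23204721 to 23205842) had 79.1 FPKM in Albion against 10.8 in Voyager, a ratio of 7.32 towards Albion, and was the highest basic chitinase of Albion pods. Its neighbour Phvul.002G114100 (23180423 to 23182177) had 4.48 FPKM in Albion against 15.5 in Voyager. The most abundant basic chitinase was therefore a gene of chromosome 2 in Albion and a gene of chromosome 9 in Voyager. The last of the 7, Phvul.003G268600, had 1.06 and 0.39 FPKM.

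Chitinase A, a class III enzyme, had 4 genes at low levels. The highest was Phvul.011G167000 on chromosome 11 (43676865 to 43678126), with 2.89 FPKM in Albion against 20.2 in Voyager. Its neighbour Phvul.011G166900 had 0.98 and 3.83 FPKM, while Phvul.011G167300, in the same cluster, had 6.47 and 3.10 FPKM. The genes named after the carrot EP3-3 chitinase, class IV enzymes, had 4.06 FPKM or less in both genotypes.

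The most abundant chitinase genes were within 2-fold. They encode chitinase-like proteins, which in A. thaliana act in the assembly of cellulose in the cell wall and not in defence. The CTL1 homologue Phvul.008G018100 had 565 FPKM in Albion against 582 in Voyager, and the CTL2 homologue Phvul.009G254400 had 414 and 606 FPKM. The log2 difference of CTL2 was 0.55, and the smaller one of CTL1, 0.04, became negative when Voyager was scaled to the same summed FPKM (-0.15) or to a median gene ratio of 1 (-0.03).

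Of the 12 PR-1, PR-4 and other PR genes, 5 (41.7%) were 2-fold higher in Voyager and none in Albion. Over all listed genes the shares were 2.55% and 1.76%, and over those spanning no more than 1003 bp they were 7.99% and 5.85%. PR-4 proteins are related to hevein and bind chitin. The PR-4 gene Phvul.006G102300 (chromosome 6, 21904737 to 21905775) had 1.03 FPKM in Albion against 31.3 in Voyager, and its log2 difference of 3.99 was the highest of the 89 genes with this pseudocount, though not with 0.1 or 5 FPKM. The adjacent PR-4 gene Phvul.006G102200 had 3.84 and 11.6 FPKM. Both PR-4 genes were thus higher in Voyager.

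PR-1 proteins belong to the CAP superfamily of secreted cysteine-rich proteins. The most abundant was the basic PR-1 gene Phvul.006G196900 (chromosome 6, 30260519 to 30261351), with 261 FPKM in Albion against 386 in Voyager, within 2-fold. It begins a row of 5 such genes within 36.9 kb. Phvul.006G197500, at the other end, had 56.7 and 84.8 FPKM, and Phvul.006G197400 had 76.6 and 49.9 FPKM. The genes between them were at or near 0 in Albion. Phvul.006G197100 had 0.31 FPKM in Albion against 4.86 in Voyager, and Phvul.006G197200 was listed at 0 in Albion, as 0.449% of all genes were, with 4.93 FPKM in Voyager. Outside the row, Phvul.003G148400 on chromosome 3 had 1.65 and 9.56 FPKM. With a pseudocount of 5 FPKM in place of 1, Phvul.006G197100, Phvul.006G197200 and the PR-4 gene Phvul.006G102200 were under the 2-fold rule, at 0.89, 0.99 and 0.91. The remaining 4 genes had between 10.9 and 33.6 FPKM and differed by less than 2-fold.

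The thaumatin-like genes, the PR-5 family, had 15 of 16 within 2-fold, with 1 (6.25%) 2-fold higher in Albion and none in Voyager. Over all listed genes these shares were 1.76% and 2.55%. The median difference of the family was 0.25, against 0.07 over all genes. The exception was Phvul.004G024600 (chromosome 4, 2515829 to 2517142), with 159 FPKM in Albion against 17.7 in Voyager, a ratio of 8.95 towards Albion. It was the highest thaumatin-like gene of Albion pods. In Voyager that place was taken by Phvul.011G065300 (chromosome 11, 5690098 to 5691706), with 145 FPKM in Albion against 199 in Voyager. Phvul.002G107800 followed with 142 and 125 FPKM. Because of 1 gene the summed FPKM of the family was higher in Albion (598 against 505). The higher value was in Voyager for 10 of the 16 genes, near the share of 61.9% over all listed genes.

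**Figure D2:**
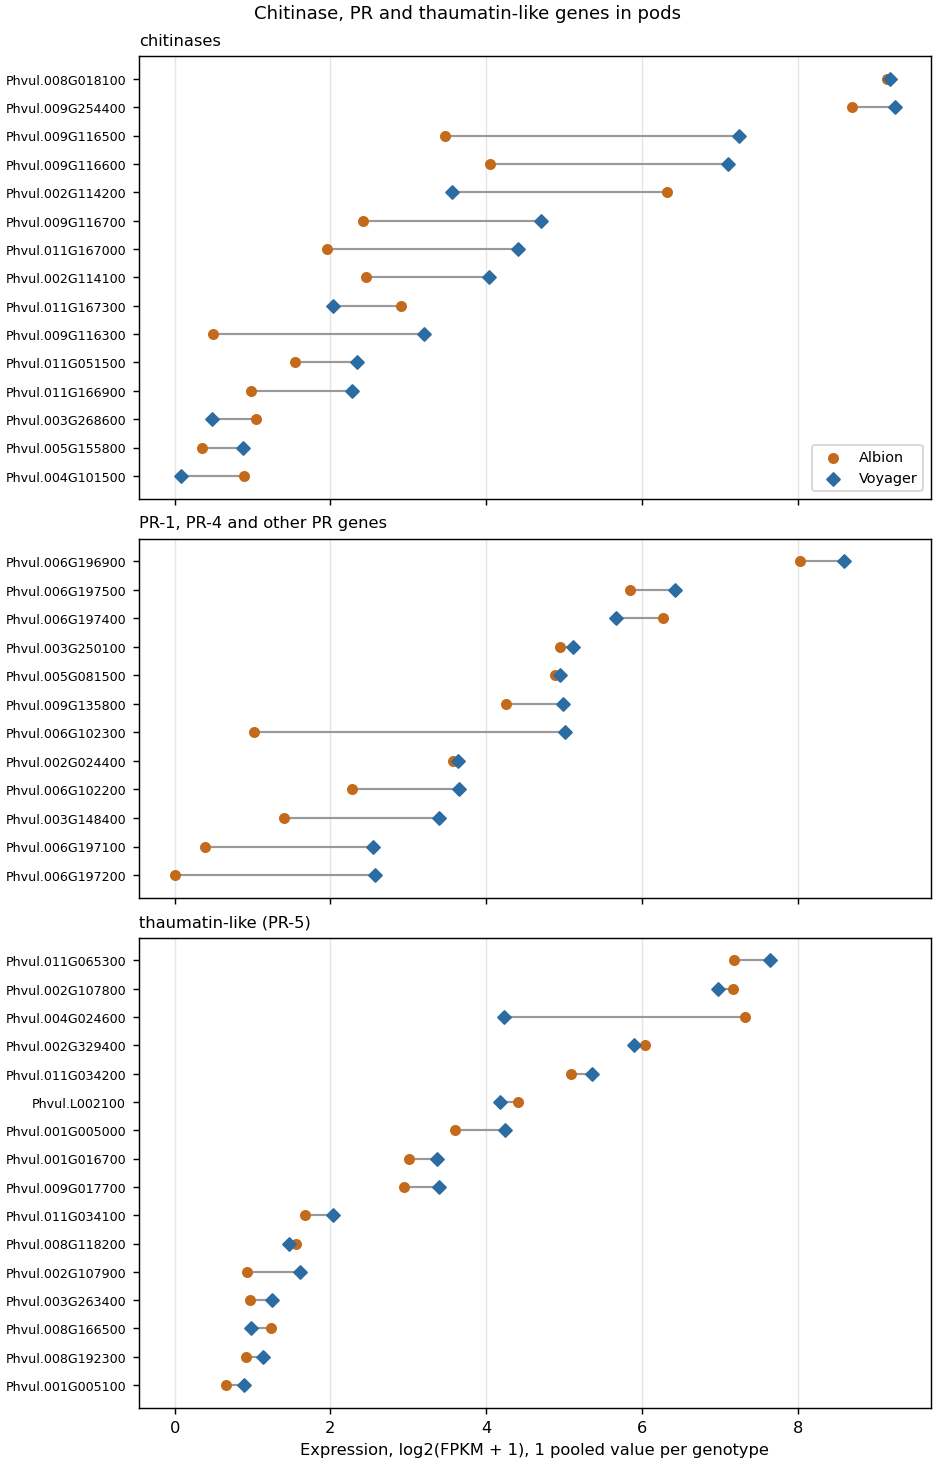
Expression as log2(FPKM + 1) of each chitinase, PR and thaumatin-like gene in Albion (circles) and Voyager (diamonds), 1 pooled value per genotype, ordered by mean within each role. The longest lines to the right belong to the PR-4 gene Phvul.006G102300 (3.99) and the chromosome 9 chitinases Phvul.009G116500 (3.77) and Phvul.009G116600 (3.06), and those to the left to Phvul.002G114200 and Phvul.004G024600.

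The 25 SCR-like and LCR peptide genes went the other way. Of these, 12 (48%) were 2-fold higher in Albion and 1 (4%) in Voyager, against 1.76% and 2.55% of all listed genes. The median difference was -0.92. The higher value was in Albion for 18 of 25, although 61.9% of all listed genes had the higher value in Voyager. Their models are very short, with a median span of 444 bp, and of the 481 listed genes no longer than this 9.77% were 2-fold higher in Albion. The share of those 481 genes 2-fold higher in Voyager was not computed. SCR proteins are the pollen determinants of self-incompatibility in Brassica, and LCR names a related class of peptides in A. thaliana that includes plant defensins.

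The most abundant of them were within 2-fold. The plant defensin gene Phvul.003G282500 (LCR68, chromosome 3, 50826291 to 50826889) had 1428 FPKM in Albion against 2002 in Voyager and ranked 36 among all listed genes by mean FPKM. Next was another LCR68 gene, Phvul.002G278600 on chromosome 2, with 538 and 367 FPKM. Beside it lies the defensin gene Phvul.002G278500 (LCR66, 44276402 to 44276845), with 215 FPKM in Albion against 31.3 in Voyager, a ratio of 6.87. These neighbours lie within 3.52 kb, and their log2 differences were -0.55 and -2.74.

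All 3 SCR-like 11 genes with more than 10 FPKM had the higher value in Albion. Phvul.008G023100 (chromosome 8, 1997718 to 1998220) had 392 FPKM in Albion against 66.1 in Voyager, a ratio of 5.93. Phvul.008G024900, at 2115863 to 2117306, had 192 and 80.1 FPKM, a ratio of 2.40. The remaining genes were closer to each other, with 24.4 and 16.9 FPKM for Phvul.008G023200 and 1.61 and 1.84 FPKM for Phvul.008G023300. Summed over the 4 genes, FPKM was 610 in Albion and 165 in Voyager.

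Among the other LCR genes, Phvul.008G145000 (LCR47) had 420 FPKM in Albion against 200 in Voyager, and Phvul.011G186400 (LCR19, chromosome 11, 46302868 to 46303223) had 67.6 and 23.7 FPKM. Its neighbour Phvul.011G186100 (LCR15), with 132 and 142 FPKM, did not differ in this way. The ratio was larger for Phvul.007G222700 (LCR44), with 25.9 FPKM in Albion against 2.18 in Voyager.

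Several short peptide genes were listed at 0 in Voyager. This applied to 6 of the 25, against 0.362% of all genes and 7.28% of the 481 short ones. On chromosome 10, Phvul.010G002300 (LCR35, 566234 to 566620) had 14.3 FPKM in Albion against 0 in Voyager, and Phvul.010G002400 (LCR21, 571793 to 572131), the gene next to it, had 8.71 and 0.92 FPKM. On chromosome 11, Phvul.011G126100 (LCR44) had 5.22 FPKM in Albion against 0 in Voyager. The remaining 4 genes at 0 in Voyager had 1.00 FPKM or less in Albion, which is at the edge of the 2-fold rule: Phvul.011G126200 and Phvul.011G126300, with 1.00 FPKM each, just met it, and 2 LCR5 genes with 0.89 FPKM just missed it. The opposite was seen once, in the LCR5 gene Phvul.003G137900, with 0 FPKM in Albion against 1.5 in Voyager.

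Of the 12 Kunitz inhibitor genes, 4 (33.3%) were 2-fold higher in Voyager and 1 (8.33%) in Albion. The shares of all listed genes were 2.55% and 1.76%, and those of genes spanning no more than 1003 bp were 7.99% and 5.85%. The summed FPKM of the 12 Kunitz genes was 143 in Albion and 250 in Voyager. All but 1 lie on chromosome 4, in a group of 7 and a group of 4. In the first group the neighbouring genes went in opposite directions. Phvul.004G129600 (40532783 to 40534148), the most abundant Kunitz gene, had 39.1 FPKM in Albion against 94.2 in Voyager, while Phvul.004G129500 (40522131 to 40523703), the gene before it, had 29.0 and 8.31 FPKM. Phvul.004G129700, the gene after it, had 9.63 and 24.3 FPKM. Phvul.004G129900, with 11.8 and 23.9 FPKM, lay just under the 2-fold rule at 0.95. The other 3 of this group differed less, with log2 differences from -0.54 for Phvul.004G130500 to 0.13 for Phvul.004G129800.

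In the second group, Phvul.004G137600 (41642965 to 41643878) had 19.6 FPKM in Albion against 66.8 in Voyager, a ratio of 3.41, and Phvul.004G138500 had 0.83 and 6.69 FPKM. Phvul.004G138000 had 5.09 and 2.73 FPKM, and Phvul.004G138300 was under 1 FPKM in both genotypes. Only the 2 genes at the ends of this group therefore reached 2-fold. The gene on chromosome 11, Phvul.011G166500, had 0.97 and 2.16 FPKM and lies beside the chitinase A genes.

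None of the 9 cystatin and serpin genes reached 2-fold. Over all listed genes only 4.31% did, so none of 9 says little about these families. The cystatin B gene Phvul.006G018600 (chromosome 6, 9202164 to 9204828) was the most abundant inhibitor, with 664 FPKM in Albion against 705 in Voyager. The phytocystatin gene Phvul.001G264400 had 258 and 228 FPKM, and Phvul.006G142600 had 96.6 and 102 FPKM. The differences of the first and the last were towards Voyager, at 0.09 and 0.08, and turned to -0.11 for both when Voyager was scaled to the same summed FPKM. The cystatins on chromosome 3 were lower, with 31.1 FPKM or less, and Phvul.003G066000 had 0.82 FPKM in Albion and was listed at 0 in Voyager. The only serpin, Phvul.009G062300, had 37.8 FPKM in both genotypes, with a difference of 0.00037 that became -0.19 under the scaling to equal sums and -0.07 under that to a median ratio of 1.

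**Figure D3:**
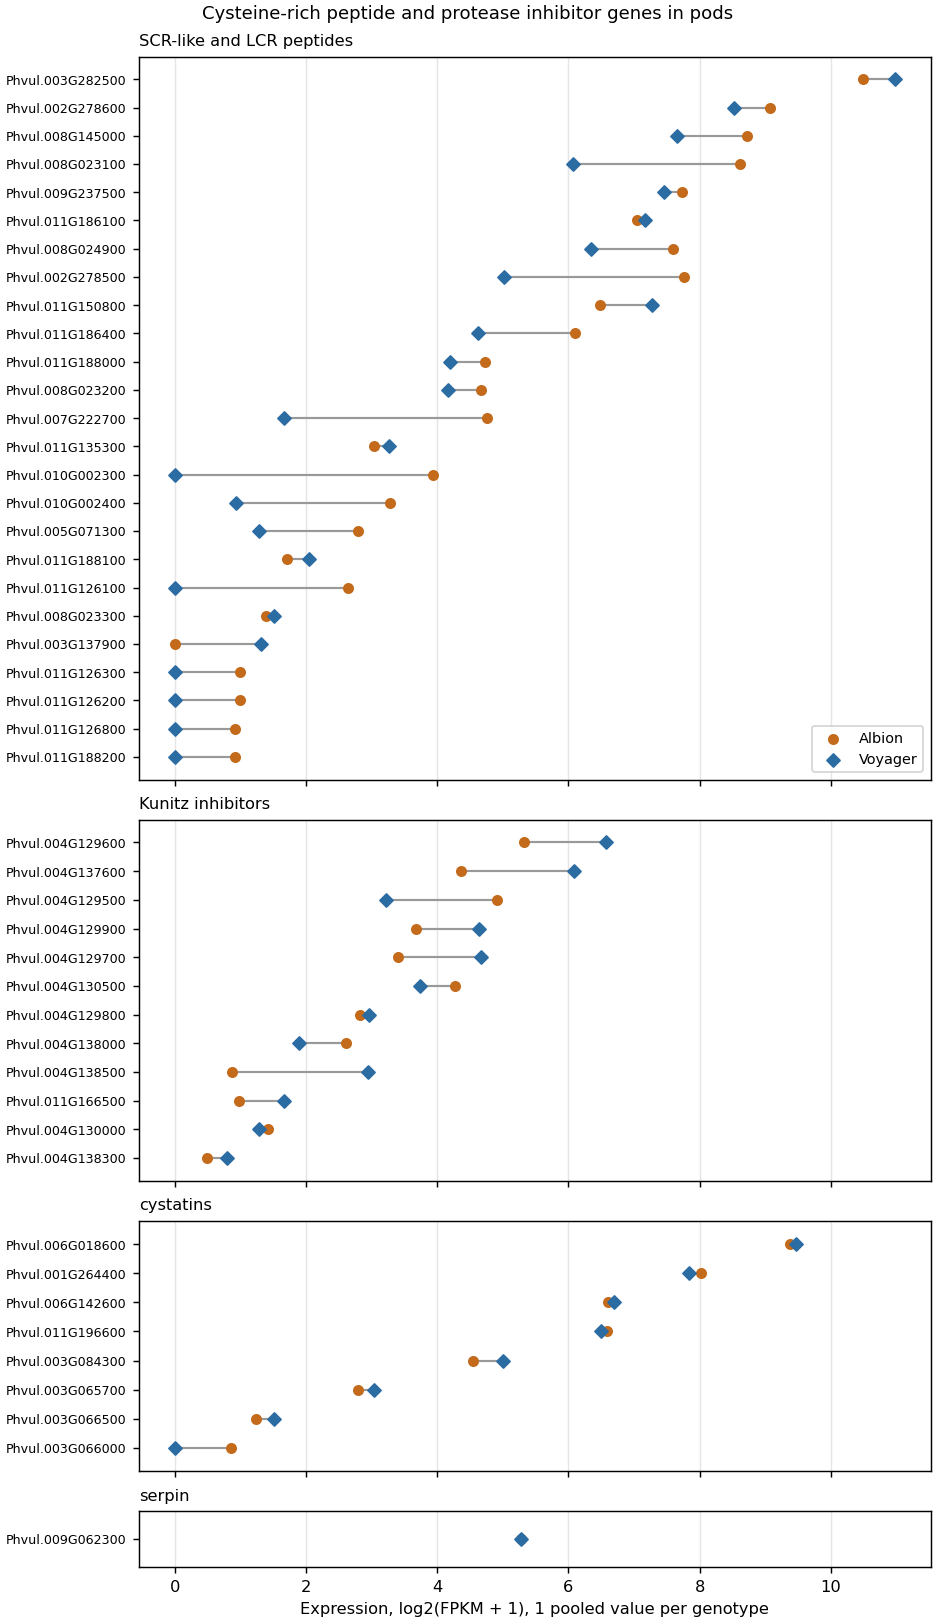
Expression as log2(FPKM + 1) of each SCR-like and LCR peptide, Kunitz, cystatin and serpin gene in Albion (circles) and Voyager (diamonds), 1 pooled value per genotype. A value of 0 on the axis is a gene listed at 0 FPKM; 6 peptide genes and 1 cystatin stand there in Voyager, and for the serpin both symbols coincide.

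Many of the genes lie in clusters, and 38 do not. Of the 89, 51 (57.3%) had another of these genes within 100 kb, in 17 clusters of up to 7 genes. Neighbours with the same annotation were picked by the same words, and the share was not compared with that of other genes. Chromosome 11 held 20 of the genes (1.34% of its listed genes) and chromosome 4 held 13 (1.08%), against 4 on chromosome 1 (0.201%). A 2-fold difference was found in 24 (47.1%) of the 51 clustered genes and in 8 (21.1%) of the 38 single ones. Of all listed genes, 4.31% had such a difference. By the higher value alone, 10 of the 17 clusters had genes towards either genotype, some by small differences. Phvul.011G186100 (0.11) and Phvul.008G023300 (0.12), the only genes of their clusters towards Voyager, turned to -0.08 and -0.0007 under the scaling to equal sums. Only 2 clusters, the chitinases of chromosome 2 and the first Kunitz group, held 2-fold differences in both directions. Reads of similar copies could be split between them by the authors' counting, which was not tested.

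The chromosome 9 chitinases were the clearest case of neighbours that were all higher in Voyager. A gene that is no chitinase, Phvul.009G116400, annotated as acyl-CoA oxidase 1, lies among them and had 1.25 FPKM in Albion against 3.51 in Voyager, a difference just over the 2-fold rule. Of the 10 listed genes that flank the cluster, 5 on each side, none reached 2-fold. Over all listed genes only 4.31% did, so none of 10 says little about the region. None of the 10 flanking genes did so around the PR-4 pair, the PR-1 row, the LCR pair of chromosome 10, both Kunitz groups and some other clusters. Around the remaining clusters up to 3 of 10 did.

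**Figure D4:**
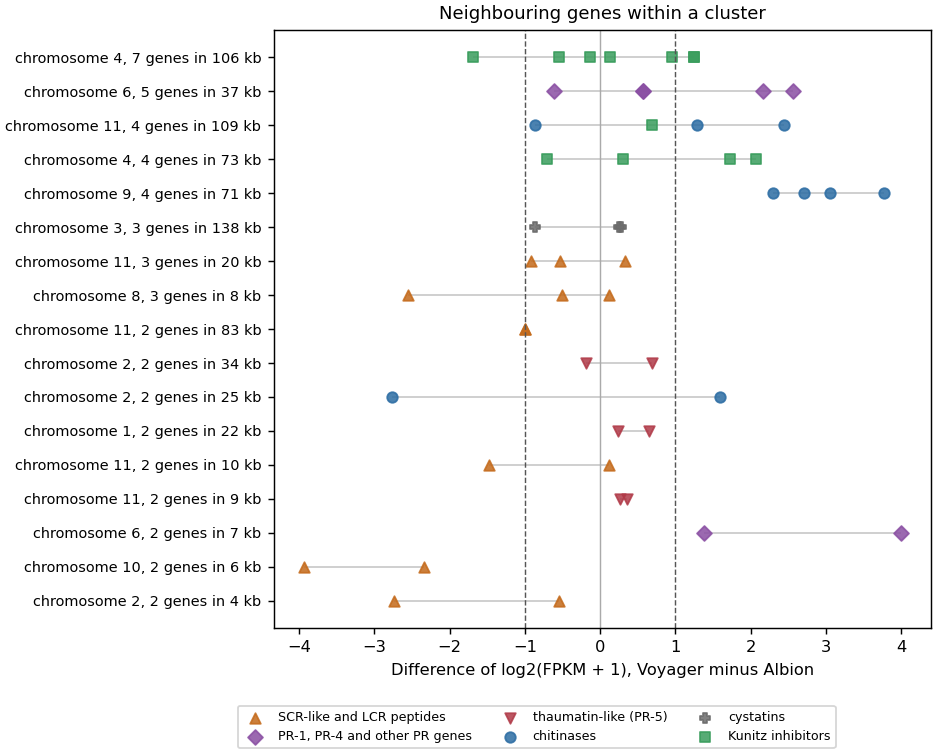
Difference of log2(FPKM + 1), Voyager minus Albion, of the 51 clustered genes, 1 row per cluster, with symbols for the role and dashed lines at a 2-fold difference. The 4 chitinases of chromosome 9 all lie right of 2, and the 2 chitinases of chromosome 2 lie on opposite sides; the 2 peptide genes of the chromosome 11 cluster of 83 kb coincide at -1.

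Further lists of genes outside the 89 were taken by annotation words tied to defence. Family 17 glycosyl hydrolases, which include the beta-1,3-glucanases (PR-2) that act together with chitinases on fungal walls, had 1 of 27 genes (3.70%) 2-fold higher in Voyager and none in Albion, beside 2.55% and 1.76% of all listed genes. Their median span was 3238 bp. The highest was Phvul.008G010600, with 161 and 192 FPKM. Another list held 15 genes with LysM domains or named for chitin perception. Most were annotated as peptidoglycan-binding LysM proteins, and 2 as chitin elicitor receptor kinase 1. Of the 15, none was 2-fold higher in Voyager and 1 (6.67%) was in Albion, beside the same 2.55% and 1.76%. Phvul.002G188800, a LysM gene anchored in the membrane, came close, with 164 FPKM in Albion against 328 in Voyager.

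The jasmonate list was taken by words for lipoxygenases, allene oxide enzymes, oxophytodienoate reductases and JAZ proteins. The list held 14 genes annotated as lipoxygenase 1, and whether these act in jasmonate synthesis was not tested. Of its 45 genes, 7 (15.6%) were 2-fold higher in Voyager, against 2.55% of all listed genes, and none in Albion, against 1.76%, and the median difference was 0.29 against 0.07. The most abundant was the lipoxygenase 1 gene Phvul.005G156900, with 2077 FPKM in Albion against 3083 in Voyager, and the widest difference with 10 FPKM or more was that of Phvul.010G135100, also annotated as lipoxygenase 1, with 3.18 and 18.0 FPKM. Of the 6 genes named for the salicylic acid regulator NPR1, none reached 2-fold. Only 4.31% of all listed genes did, so none of 6 says little. Protease inhibitors of other families numbered 5, all with the higher value in Voyager, as 61.9% of all listed genes had. A 2-fold difference towards Voyager was reached by 1 of them (20%), against 2.55% of all listed genes. This was the potato inhibitor I gene Phvul.007G125500, with 2.99 FPKM in Albion against 11.9 in Voyager. So few genes say little about their families. The single barwin-like gene had 16.4 and 20.4 FPKM, and the single gene annotated as defensin-like was listed at 0 in Albion and had 1.2 FPKM in Voyager.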

How the data were processed

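Pod RNA of 3 Albion and 3 Voyager samples was sequenced by the authors. Reads were trimmed, filtered and aligned to the v1.0 genome with TopHat 1.4.1 and Bowtie 0.12.7 and quantified with Cufflinks 1.3.0 and Cuffdiff. The authors deposited 1 pooled FPKM per gene and genotype, rounded to 2 decimals. The fold changes, test statistics, p-values and q-values of the authors' own comparison were not used. Read counts were not used here, so precision is unknown.

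Differences of log2(FPKM + 1), list counts, medians and clusters (gap of at most 100 kb) were computed in Python 3.11 with numpy 2.4.6 and pandas 2.3.3. The calls were run on simulated data with large changes in genes of 10 FPKM or more, whose recovery that setting fixed. The simulation says nothing about calls near 2-fold or at low levels. Figures were drawn with matplotlib 3.10.9. Genes were named by a rule: the 3 highest of each role, those with a 2-fold difference and at least 10 FPKM in the higher genotype (at most 15 per direction), those listed at 0 in a genotype with at least 1 FPKM in the other, their cluster neighbours, and in each further list the 2 highest and the widest in each direction. Not all genes it takes are named individually. Outside it, Phvul.003G268600, Phvul.003G148400, Phvul.003G066000 and Phvul.009G116400 were named after their values were seen. Members and lists were chosen with earlier results of these data known. Alternatives covered the pseudocount, scaling, level filters, overlapping genes, the fold and the cluster distance. The comparison with short genes and the ratio without a pseudocount were added after seeing the data.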

Additional observations from a re-analysis of the deposited data

How the results depend on the processing

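The numbers of genes at least 2-fold higher in Voyager and in Albion stayed within 1.5 times of 17 and 15 under pseudocounts of 0.1 and 5 FPKM, both scalings, a mean of at least 1 FPKM, the removal of overlapping genes, a ratio of at least 1.5 and a ratio without pseudocount. With a mean of at least 10 FPKM they were 8 and 9 of 47 genes, because fewer genes entered, and with a ratio of at least 4 they were 9 and 8. The median difference became -0.024 when Voyager was scaled to the same summed FPKM, a step of -0.19 on the log2 scale, while the median over all genes became -0.11. The ratio of summed FPKM, 1.02 towards Voyager, turned to 0.896 under that scaling, to 0.975 with a median gene ratio of 1 and to 0.934 without Phvul.003G282500. Of 55 named genes, 30 were called 2-fold, 23 of these under every pseudocount and scaling, and none of the 30 changed sign. Those lost, such as Phvul.006G197200, were lost with a pseudocount of 5 FPKM. Of the other named genes, 7 with small differences changed sign under a scaling. No paired analysis was possible because the table holds 1 pooled value per genotype, and for the same reason no replicate could be left out. Differences of genes under about 1 FPKM depend on the pseudocount, and depth limits them to an unknown degree.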

Other observations

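Short peptide genes with low values shared exact values. Phvul.011G126200 and Phvul.011G126300, both spanning 345 bp, had 1.00 FPKM each in Albion, and Phvul.011G126800 and Phvul.011G188200, of 356 and 355 bp, had 0.89 FPKM each, all with 0 in Voyager. Chitinase levels covered a wide range: Phvul.009G254400 reached 606 FPKM in Voyager, and Phvul.004G101500, a chitinase A gene, had 0.06 FPKM there and 0.85 in Albion.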
